A study of Mus musculus with 12 samples.

Results

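The B-cell receptor complex and its co-receptors were followed here as 9 genes chosen by name, Cd79a, Cd79b, Ms4a1, Cr2, Cd22, Blk, Syk, Btk and Blnk, across 3 diets and in each mouse. A level of 1 probe per gene was used, the probe with the highest mean over the 12 spleens, and 8 of the 9 genes had such a probe among the 19057 genes with a named probe. Cd79a had no probe paired with it in the annotation used and was not analysed here. RNA of whole spleen from male C57BL/6J mice was hybridized to Illumina MouseWG-6 v2.0 arrays, with 1 mouse per array and 4 mice per diet. All mice arrived at 6 weeks of age, were kept on control chow for 3 weeks and then ate their diet for 8 weeks. The HFD-ED diet was a high fat diet with 15% fat by weight, made up of 10% coconut oil, 3% corn oil and 2% of an oil of eicosapentaenoic and docosahexaenoic acid (EPA and DHA), and with 1% cholesterol. The HFD-CO diet had the same amounts of fat and cholesterol, its fat being 10% coconut oil and 5% corn oil. The control diet, labelled low fat, held 5% fat, 2.5% each of coconut and corn oil, and no added cholesterol. HFD-ED against HFD-CO therefore set 2% of EPA and DHA oil against 2% of corn oil, while either high fat diet differed from control in the amount of fat and in cholesterol too. The 4 mice of a diet were picked by the study by body weight and plasma lipids, and which mice shared a cage is not given in the sources used here.

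The B-cell receptor is a membrane immunoglobulin that binds antigen, held together with the signalling chains Cd79a and Cd79b. Antigen binding lets Src-family kinases such as Blk phosphorylate the tails of these chains, Syk docks there and phosphorylates the adaptor Blnk, and Blnk brings Btk to phospholipase C gamma, which starts calcium and protein kinase C signalling. Cr2 (CD21) binds complement fragments on antigen and lowers the amount of antigen needed, whereas the lectin Cd22 recruits phosphatases that dampen the signal. Ms4a1 (CD20) is a tetraspanning protein of the B-cell surface. The spleen holds large numbers of follicular and marginal zone B cells, and Syk and Btk are also used by myeloid cells.

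None of the 8 measured members passed the test in any of the 3 comparisons. In HFD-ED compared with control fed mice, 7 of the 8 members had the lower mean and 1, Btk, the higher mean. Their median difference was -0.17 on the log2 scale against -0.004 over all 19057 genes, of which 54.1% were lower. Among the 7014 genes with a mean of at least 7.5, a set that leaves out Syk, the median was -0.03 and 59.0% were lower. The members farthest from 0 were Blk, a B-cell Src-family kinase, at -0.58 ± 0.13 (SE) and Cd79b at -0.34 ± 0.091. Set against the HFD-CO fed mice, the HFD-ED mice had 6 of the 8 means lower with a median difference of -0.12. Of the genes with a mean of at least 7.5, 57.2% were lower there, with a median of -0.02. In HFD-CO compared with control fed mice 7 of the 8 means were lower with a median difference of -0.09. Of the same brighter genes 54.8% were lower, with a median of -0.01. The 2 medians of the members for HFD-ED moved with single mice. Without HFD-ED replicate 3 they were -0.09 against control and -0.03 against HFD-CO, and without HFD-ED replicate 1 they were -0.25 and -0.20. These are normalized levels of a bulk tissue. In them fewer B cells, a smaller share of B cells beside more of other cells, and less RNA per B cell cannot be told apart.

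Libraries that stood apart have to be named first. HFD-ED replicate 3 was the lowest of the 12 mice in 7 of the 8 members, all but Btk. HFD-ED replicate 1, in contrast, lay above the mean of the 12 mice in 5 of the 8 members. HFD-CO replicates 1 and 4 stood apart in 5 pancreatic acinar markers, at mean levels of 10.40 and 13.47. The other HFD-CO fed mice had 7.21 and 7.19, so comparisons with HFD-CO include mice with such RNA. Across the 45281 probes, the arrays of mice on 1 diet correlated between 0.971 and 0.995, and 0, 1 and 0 probes passed an adjusted p-value of 0.05 in HFD-ED against control, HFD-ED against HFD-CO and HFD-CO against control, whereas 4620, 4211 and 2072 had an unadjusted p-value under 0.05 (limma). Without HFD-ED replicate 1, 87 probes passed in the comparison with control and 46 in that with HFD-CO, none of them a probe used for a member. The extraction text of the samples names skeletal muscle where the tissue label says spleen. The mean level of 6 muscle markers was between 7.08 and 7.15 in every mouse, where the median of all values is 7.14, while the mean of 6 red pulp macrophage markers lay between 10.22 and 10.62.

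The signalling chain Cd79b gave normalized log2 levels of 12.75, 12.60, 12.32 and 12.46 in the HFD-ED fed mice. The HFD-CO fed mice had 12.85, 12.71, 12.64 and 12.82, and the control mice had 12.99, 12.93, 12.73 and 12.83. HFD-ED replicates 2, 3 and 4 lay below every HFD-CO and every control mouse, and HFD-ED replicate 1 lay within both ranges. Means were 12.53 ± 0.19 in HFD-ED, 12.75 ± 0.098 in HFD-CO and 12.87 ± 0.12 in control fed mice (SD, n = 4 each). The difference of HFD-ED from control was -0.34 (95% interval -0.54 to -0.14), a fold of 0.79, and did not pass the test over all probes (limma, adjusted p-value = 0.304). Against HFD-CO the difference was -0.22 (-0.42 to -0.02, adjusted p-value = 0.504), and HFD-CO against control gave -0.12 (-0.32 to 0.08, adjusted p-value = 0.99996). A second, dimmer probe of Cd79b followed the first across the 12 mice (Pearson r = 0.90) and gave -0.42 against control and -0.41 against HFD-CO, with all 4 HFD-ED mice below all mice of the other diet in both, at adjusted p-values of 0.259 and 0.345.

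**Figure D1:**
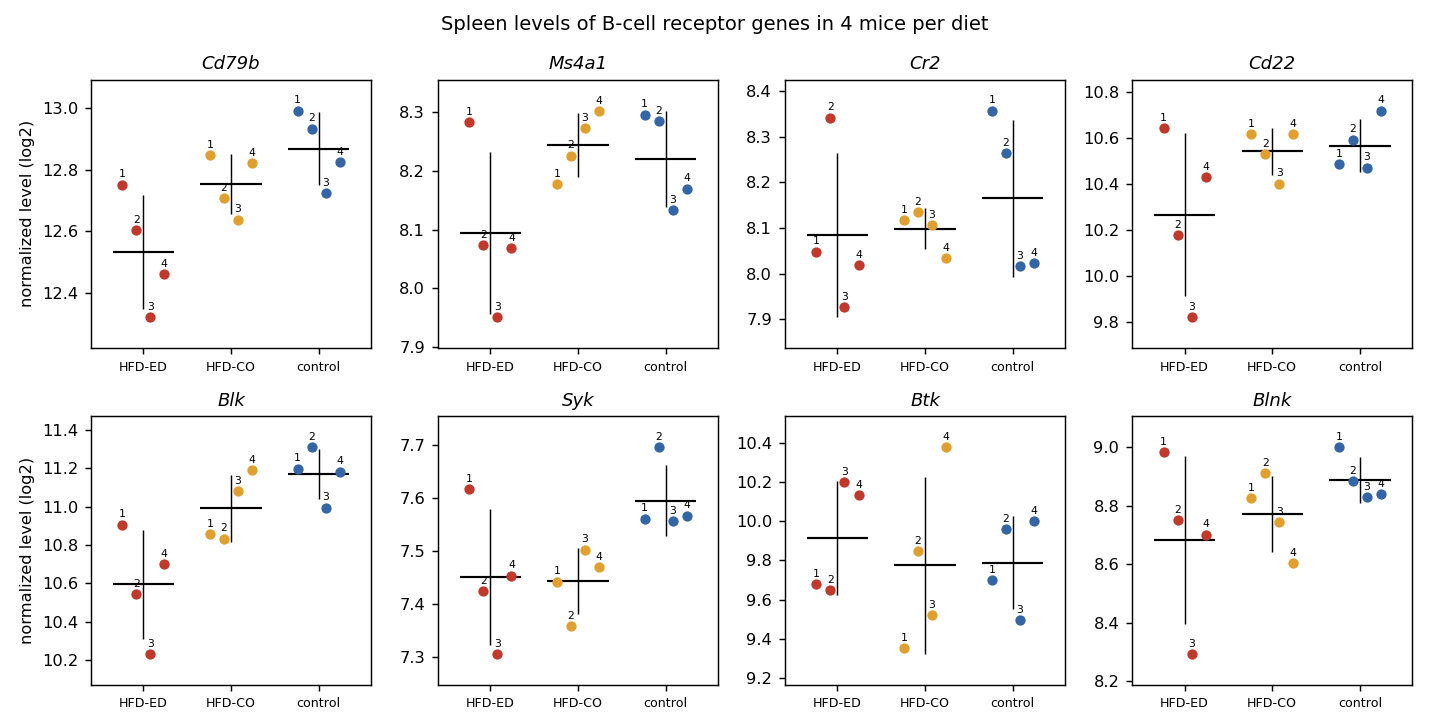
Normalized levels (log2, each panel with its own axis that does not start at 0) of the 8 measured genes, with 1 point per mouse numbered by replicate, a bar for the mean and a line for ± 1 SD of the 4 mice of a diet. HFD-ED replicate 3 is the lowest point of 7 panels, and the HFD-ED points lie below all control points only for Blk.

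Among the surface co-receptors, Cd22 was measured at 10.64, 10.18, 9.82 and 10.43 in the HFD-ED fed mice. HFD-CO fed mice gave 10.62, 10.53, 10.40 and 10.62, and control mice gave 10.48, 10.59, 10.47 and 10.72. HFD-ED replicate 1 was the second highest of all mice and its 3 diet mates included the 2 lowest, so that HFD-ED overlapped with both other diets, and HFD-ED replicate 4 also lay above the lowest HFD-CO mouse. The difference was -0.30 ± 0.14 from control and -0.27 ± 0.14 from HFD-CO (SE, adjusted p-values 0.516 and 0.606), and the SD of 0.35 in HFD-ED compares with 0.10 in HFD-CO and 0.11 in control fed mice. HFD-CO and control means differed by -0.02 ± 0.14. Without HFD-ED replicate 3 the difference from control was -0.15 and without HFD-ED replicate 1 it was -0.42. A second probe of Cd22 followed the first across the 12 mice (r = 0.80) and gave smaller differences of -0.16 from control and -0.18 from HFD-CO, while a dim probe at a mean of 7.17 ran opposite to it (r = -0.79) and gave 0.04 and 0.02.

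The CD20 gene Ms4a1 read 8.28, 8.07, 7.95 and 8.07 with HFD-ED, 8.18, 8.23, 8.27 and 8.30 with HFD-CO, and 8.30, 8.28, 8.13 and 8.17 with control diet. Again 3 of the HFD-ED mice lay below every other mouse and replicate 1 was among the high ones. The differences of HFD-ED were -0.13 ± 0.064 from control and -0.15 ± 0.064 from HFD-CO (SE, adjusted p-values 0.540 and 0.517), and HFD-CO minus control was 0.02 ± 0.064. The difference from control was -0.08 without HFD-ED replicate 3 and -0.19 without HFD-ED replicate 1.

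Complement receptor Cr2 had levels of 8.05, 8.34, 7.93 and 8.02 in HFD-ED, 8.12, 8.14, 8.11 and 8.03 in HFD-CO, and 8.36, 8.26, 8.02 and 8.02 in control fed mice. Its high mice were HFD-ED replicate 2 and control replicates 1 and 2, so that the diets overlapped throughout. The intervals were -0.29 to 0.13 for HFD-ED minus control and -0.22 to 0.20 for HFD-ED minus HFD-CO. For HFD-CO minus control the interval was -0.28 to 0.14. Leaving out 1 mouse moved HFD-ED minus control between -0.17 without HFD-ED replicate 2 and -0.02 without control replicate 1. The second probe of Cr2, at a mean of 7.08, was near the median of all values and gave no usable level.

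The kinase Blk had levels of 10.91, 10.54, 10.23 and 10.70 in the HFD-ED fed mice. HFD-CO fed mice had 10.86, 10.83, 11.08 and 11.19, and control mice had 11.20, 11.31, 10.995 and 11.18. All 4 HFD-ED mice lay below all 4 control mice, the only member of which this was so, and 3 of them lay below every HFD-CO mouse. Means were 10.60 ± 0.28 in HFD-ED, 10.99 ± 0.17 in HFD-CO and 11.17 ± 0.13 in control fed mice (SD, n = 4 each). HFD-ED minus control was -0.58 (95% interval -0.87 to -0.28), a fold of 0.67, and did not pass the test (limma, adjusted p-value = 0.252). The nearest any left-out mouse brought this to the threshold was an adjusted p-value of 0.0573, at -0.68 without HFD-ED replicate 1, and without HFD-ED replicate 3 the difference was -0.45. HFD-ED minus HFD-CO was -0.40 (-0.69 to -0.10, adjusted p-value = 0.464), and HFD-CO minus control was -0.18 (-0.48 to 0.12). A second bright probe of Blk ran with the first (Pearson r = 0.86 over the 12 mice) and gave -0.46, -0.25 and -0.21 for HFD-ED minus control, HFD-ED minus HFD-CO and HFD-CO minus control, again without overlap between HFD-ED and control. The remaining, dim probe of Blk, at a mean of 7.44, did not follow them (r = 0.08).

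Syk, the tyrosine kinase that docks on the phosphorylated chains, was dim on these arrays. Its levels were 7.62, 7.42, 7.31 and 7.45 in HFD-ED, 7.44, 7.36, 7.502 and 7.47 in HFD-CO, and 7.56, 7.69, 7.56 and 7.57 in control fed mice. Here all 4 HFD-CO mice lay below all 4 control mice, and 3 of the 4 HFD-ED mice did so. The differences were -0.14 ± 0.060 for HFD-ED minus control, -0.15 ± 0.060 for HFD-CO minus control and 0.01 ± 0.060 for HFD-ED minus HFD-CO (SE), with adjusted p-values of 0.446, 0.99996 and 0.986. The normalization compresses differences of dim probes, so sizes cannot be set side by side between Syk and bright members such as Blk.

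Btk, the Tec-family kinase that activates phospholipase C gamma 2, was the exception among the members. It had 9.68, 9.65, 10.20 and 10.13 in HFD-ED, 9.35, 9.85, 9.52 and 10.38 in HFD-CO, and 9.70, 9.96, 9.50 and 10.002 in control fed mice. Both its lowest and its highest mouse ate HFD-CO, and HFD-ED replicate 3, the lowest mouse of the other members, was the second highest. The intervals of -0.36 to 0.61 for HFD-ED minus control, -0.35 to 0.63 for HFD-ED minus HFD-CO and -0.50 to 0.47 for HFD-CO minus control leave the direction unsettled.

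The adaptor Blnk read 8.98, 8.75, 8.29 and 8.70 in HFD-ED, 8.83, 8.91, 8.74 and 8.60 in HFD-CO, and 8.998, 8.88, 8.83 and 8.84 in control fed mice. Of the HFD-ED mice, replicates 2, 3 and 4 lay below all control mice, and replicate 1 was the second highest of the 12. Differences were -0.21 ± 0.12 for HFD-ED minus control, -0.09 ± 0.12 for HFD-ED minus HFD-CO and -0.12 ± 0.12 for HFD-CO minus control (SE, adjusted p-values 0.617, 0.887 and 0.99996). Without HFD-ED replicate 3 the difference from control was -0.08. A second Blnk probe followed the first (r = 0.80) and gave -0.12, 0.01 and -0.14 for the same 3 comparisons.

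**Figure D2:**
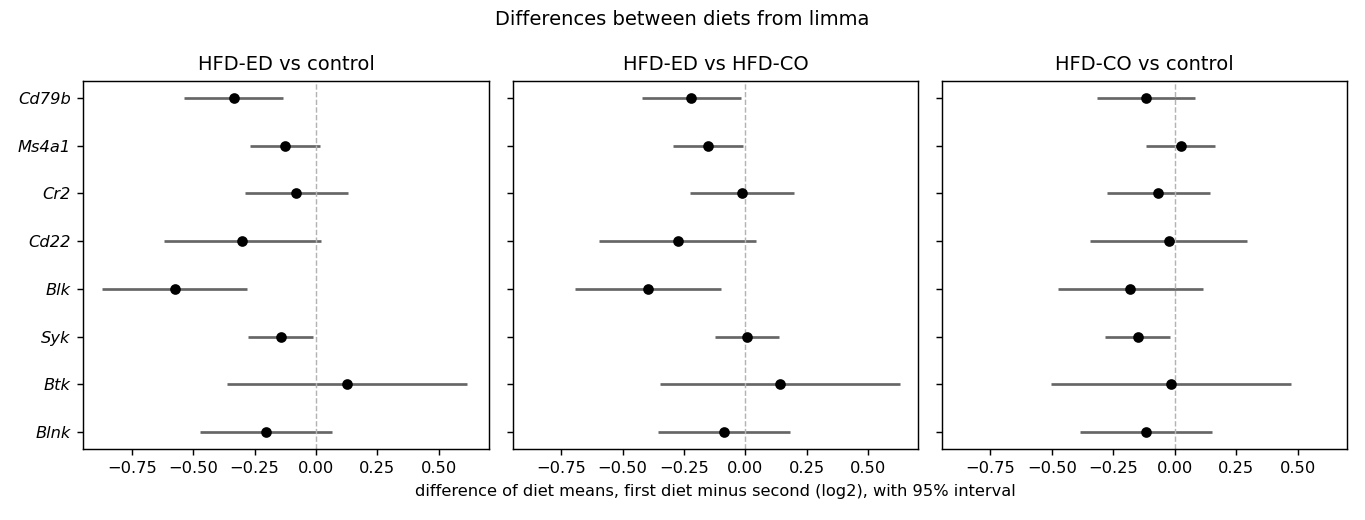
Differences of diet means for the 8 genes (log2, first diet minus second), as points with 95% intervals from the limma fit over all 12 mice. For HFD-ED against control the intervals of Cd79b, Blk and Syk lie below 0 before adjustment over all probes, and after it no gene passed in any of the 3 panels.

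Read against all genes, the counts were as follows. For HFD-ED against control, 0 of 8 members passed an adjusted p-value of 0.05, as did 0% of all probes. At an unadjusted p-value under 0.05, 3 members (Blk, Cd79b and Syk) were lower, where 7.55% of the 19057 genes were. Blk was the 1 member whose HFD-ED values all lay below the control values, against 3.49% of all genes and 6.05% of the 7014 genes with a mean of at least 7.5, a set that leaves out Syk. Leaving out HFD-ED replicate 1, the HFD-ED mouse that was high in the members, took this count to 6 of 8, all but Cr2 and Btk. Of all genes, 7.55% were then in that position. This was the highest count with any 1 mouse left out, the range being 1 to 6. The mouse was picked by the levels of the members, which also correlated with each other, so the count adds no support.

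For HFD-ED against HFD-CO, 0 of 8 members and 0.00221% of all probes passed. The 3 members lower at an unadjusted p-value under 0.05 were Blk, Cd79b and Ms4a1, where 5.82% of genes were lower. No member had all HFD-ED values below all HFD-CO values, which 2.61% of all genes and 4.15% of the genes with a mean of at least 7.5 had. Without HFD-ED replicate 1 the members Cd79b, Ms4a1 and Blk did, against 6.23% of all genes. This too was the highest count with any 1 mouse left out, the range being 0 to 3, and adds no support.

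For HFD-CO against control, 0 of 8 members and 0% of all probes passed, and Syk was the 1 member lower at an unadjusted p-value under 0.05, where 2.88% of genes were. Syk was also the 1 member whose HFD-CO values all lay below the control values, against 1.85% of all genes. The order of the diet means was HFD-ED lowest, HFD-CO between and control highest in 5 members (Cd79b, Cr2, Cd22, Blk and Blnk), but HFD-CO and its neighbours in that order overlapped in all 5. Comparisons with control share the 4 control mice, so that their values are not independent of each other.

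Per mouse, the mean deviation of the 8 members from their 12-mouse means was 0.05, -0.12, -0.31 and -0.07 in HFD-ED replicates 1 to 4. In HFD-CO fed mice it was -0.03, 0.01, -0.03 and 0.11, and in control mice it was 0.14, 0.18, -0.04 and 0.10. The spread between mice was widest with HFD-ED: the SD was larger there than in either other diet in 7 of the 8 members, Btk being the exception with its largest SD in HFD-CO. Levels of the members ran together across the mice. Over the 12 mice, the 21 pairs without Btk had Pearson correlations between 0.10 and 0.86 with a median of 0.67, and the 15 pairs without Btk and Cr2 lay between 0.62 and 0.86. The closest pair was Cd79b and Blk (0.86), followed by Ms4a1 and Blk (0.86). All 7 pairs with Btk were negative, between -0.54 with Blnk and -0.08 with Blk. These correlations are a description over 12 mice on 3 diets, each pair measured on the same arrays.

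**Figure D3:**
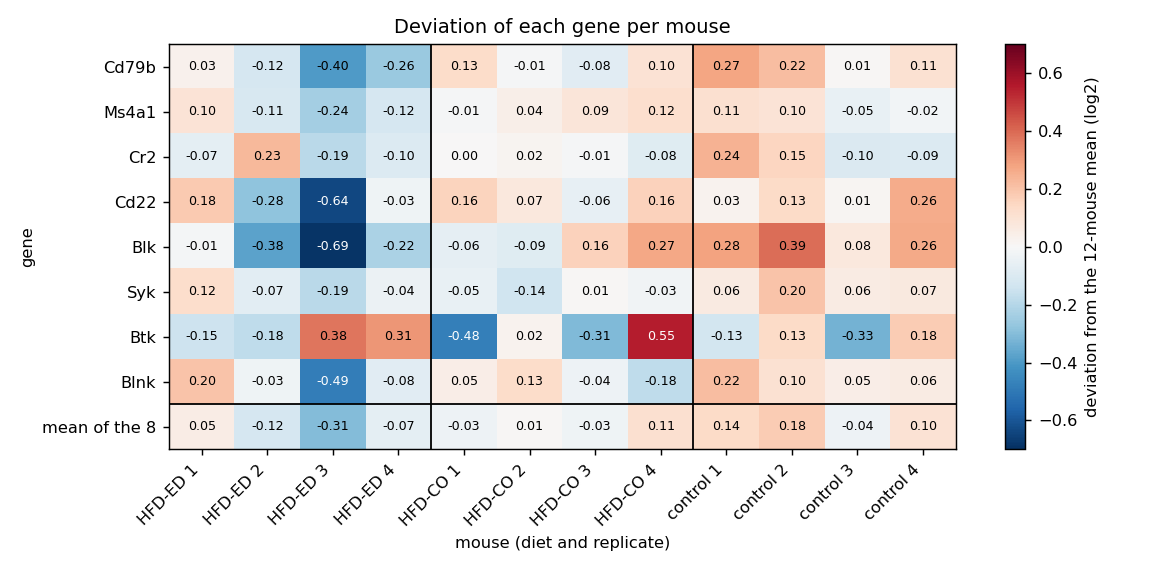
Deviation of each gene from its mean over the 12 mice (log2) per mouse, with the mean of the 8 genes in the last row, columns grouped as HFD-ED, HFD-CO and control. HFD-ED replicate 3 is the lowest column except in the row of Btk, and control replicate 2 is above the mean in all 8 genes.

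The letters before the start sites of these genes are shown for Cd22 and Blnk, whose windows hold the rarer motifs, and for Btk, the member that correlated negatively with all others. RefSeq windows of 300 bases on GRCm38.p6, 250 before and 50 after a transcript start, were given for 6 of the 9 members as 7 windows, with a pair of starts for Syk. They were searched on both strands for 4 motifs of B-cell transcription factors: the octamer ATTTGCAT (or ATGCAAAT) of the Oct proteins, the GAGGAA core (or TTCCTC) of PU.1, the E-box CAGGTG (or CACCTG) of the E2A type, and the paired half-sites TCCCNNGGGA of Ebf1. Matches are in capitals, and the letters of no motif overlap those of another in these windows.
Cd22 (chr7:30878979-30879278, minus strand): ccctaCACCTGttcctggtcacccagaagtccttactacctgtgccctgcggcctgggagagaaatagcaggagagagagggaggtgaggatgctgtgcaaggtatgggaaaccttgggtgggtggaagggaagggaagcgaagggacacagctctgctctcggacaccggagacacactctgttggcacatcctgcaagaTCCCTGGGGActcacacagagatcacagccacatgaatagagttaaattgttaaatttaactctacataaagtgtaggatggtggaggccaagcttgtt
Blnk (chr19:40994172-40994471, minus strand): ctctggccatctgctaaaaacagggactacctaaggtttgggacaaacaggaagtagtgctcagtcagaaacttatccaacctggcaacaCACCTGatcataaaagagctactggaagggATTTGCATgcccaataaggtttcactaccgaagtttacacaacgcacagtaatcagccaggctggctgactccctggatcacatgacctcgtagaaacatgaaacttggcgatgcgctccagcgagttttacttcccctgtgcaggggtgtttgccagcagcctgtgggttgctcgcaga
Btk (chrX:134583091-134583390, minus strand): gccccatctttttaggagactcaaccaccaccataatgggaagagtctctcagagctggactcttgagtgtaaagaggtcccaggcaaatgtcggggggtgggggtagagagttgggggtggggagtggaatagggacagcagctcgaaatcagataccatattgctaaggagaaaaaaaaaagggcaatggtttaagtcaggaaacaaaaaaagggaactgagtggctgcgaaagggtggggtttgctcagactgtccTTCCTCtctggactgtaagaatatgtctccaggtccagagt
The Cd22 window held an E-box beginning at base -245, counted from the start, and the only Ebf1 half-sites of the 7 windows, at -49. The Blnk window held the only octamer, at -130, and an E-box at -160. The Btk window had a PU.1 core just after the start and was the only one of the 6 genes with no E-box: 6 of the 7 windows held one, against 20.2% of 32851 such windows of mouse genes. The octamer was found in 1.74% of all windows, the PU.1 core in 28.3% (Cd79a, Btk and 1 Syk window among the members) and the Ebf1 half-sites in 0.904%. These matches describe letters and not binding.

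Genes outside the complex with the most similar values over the 12 mice were ranked among 7007 genes with a mean of at least 7.5. The mean deviation of the members was followed most closely by Guf1, a mitochondrial translation factor (Pearson r = 0.95), and Matk, a kinase of the Csk type that acts on Src-family kinases (0.94). Next came Gsdmd, the pore-forming gasdermin D, 6330509M05Rik, Arhgef1, a guanine nucleotide exchange factor, Snapc3, Slc35b3, Anks3, Sp100 and Myo1g, all with r between 0.92 and 0.94. Matk was at 8.14, 7.86, 7.58 and 7.94 in HFD-ED, 7.95, 8.02, 8.10 and 8.14 in HFD-CO, and 8.09, 8.22, 7.91 and 8.10 in control fed mice, again lowest in HFD-ED replicate 3. Single members had their own neighbours. Blk was most like Arhgap30 (0.97), the protein kinase C gene Prkcd (0.96) and the caspase gene Casp8 (0.96), and Cd79b was most like Cavin3, the fatty acid receptor gene Ffar2 and Ciita, the master regulator of MHC class II (0.95 each). Cd22 was nearest to H2-T10 (0.96), Fam214a and Ppp1r16b, Blnk to Map1s (0.96), Bcl2a1d and Mvb12a, and Ms4a1 to Rnf103, Rubcn and 6330509M05Rik (0.94 each). Syk was nearest to Aatf (0.93), Hvcn1 and Wls, Cr2 to Stbd1 (0.93), Rgs3 and Sprr2a1, and Btk to the ribosomal protein gene Rps6 (0.90), Kin and Fam20b.

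Of the surface proteins around the receptor, none of the genes of any of the 15 lists of related genes passed an adjusted p-value of 0.05 in any comparison, and their values are given as counts and medians, with some genes standing in more than 1 list. Of 10 measured co-receptor partners and activating surface proteins, 8 were lower in HFD-ED compared with control fed mice with a median of -0.14. Compared with HFD-CO, 9 were lower with a median of -0.15. Of all genes, 54.1% and 53.0% were lower in these comparisons, and of those with a mean of at least 7.5, 59.0% and 57.2% were. Cd40, the receptor for T-cell help, was at 10.11, 10.08, 9.76 and 10.22 in HFD-ED, 10.52, 10.32, 10.49 and 10.45 in HFD-CO, and 10.57, 10.60, 10.56 and 10.56 in control fed mice. All 4 HFD-ED values of Cd40 lay below all values of both other diets, at -0.53 ± 0.081 from control and -0.40 ± 0.081 from HFD-CO (SE, adjusted p-values 0.193 and 0.337). Cd180, a Toll-like receptor relative of B cells, had the same position at -0.23 and -0.28. Cd74, the invariant chain of MHC class II, was at -0.33 from control. Cd24a was on the other side at 0.35, with 7.34, 7.72, 7.83 and 7.502 in HFD-ED and between 7.18 and 7.33 in control fed mice, and was highest in HFD-ED replicate 3. Of the antigen-binding chains, Ighg1 was the only one of 12 with a named probe, at -0.43 ± 0.46 (SE) from control.

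All 11 measured inhibitory surface receptors had a lower mean in HFD-ED than in control fed mice, with a median of -0.07, and 10 of 11 were lower compared with HFD-CO. Siglecg, the sialic acid receptor related to Cd22, was at 9.59, 8.85, 9.30 and 9.43 in HFD-ED, 9.47, 9.45, 9.50 and 9.78 in HFD-CO, and 9.95, 9.67, 9.86 and 9.84 in control fed mice. Its HFD-ED values lay below all control values (-0.54 ± 0.14, SE, adjusted p-value = 0.297). Fcrla was at -0.31, the inhibitory Fc receptor gene Fcgr2b at -0.20 and Cd72 at -0.29, with overlap.

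Of the kinases related to the members, 3 of 4 measured Src-family genes had lower means in HFD-ED than in control fed mice (Fgr -0.14, Fyn -0.09, Yes1 -0.03, and Src 0.07), and 3 of 4 of the Syk and Tec families did (Tec -0.27, Zap70 -0.23, Bmx close to 0, and Txk 0.04). The 32 adaptors and effectors behind the receptor had 24 lower means and a median of -0.15 for HFD-ED minus control, 27 lower and a median of -0.11 for HFD-ED minus HFD-CO, and 16 lower and a median of 0.003 for HFD-CO minus control. In 6 of them the HFD-ED values all lay below the control values, against 3.49% of all genes and 6.05% of those with a mean of at least 7.5. Below all HFD-CO values they lay in 1 of them, against 2.61% and 4.15%. Malt1, the paracaspase that links the receptor to NF-kB, was at 9.36, 9.07, 8.60 and 9.39 in HFD-ED, 9.35, 9.40, 9.64 and 9.66 in HFD-CO, and 9.84, 9.93, 9.56 and 9.43 in control fed mice. Its lowest mouse was again HFD-ED replicate 3, and the difference from control was -0.58 ± 0.17 (SE, adjusted p-value = 0.335). From control, the exchange factor gene Vav2 was at -0.26, the calcium channel gene Itpr3 at -0.33 and the protein kinase C gene Prkcb at -0.31. From HFD-CO they were at -0.05, -0.15 and -0.19, and the HFD-CO values of Vav2 all lay below the control values (-0.21). Negative regulators behind the receptor had 10 of 15 lower means and a median of -0.13 from control, with Sla at -0.31, the phosphatase gene Ptpn6 at -0.23, Csk at -0.21 and the lipid phosphatase gene Inpp5d at -0.22. From HFD-CO, 12 of 15 were lower with a median of -0.04, with Sla at -0.24, Ptpn6 at -0.01, Csk at -0.16 and Inpp5d at -0.18. Ptpn6 was at -0.22 for HFD-CO minus control.

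**Figure D4:**
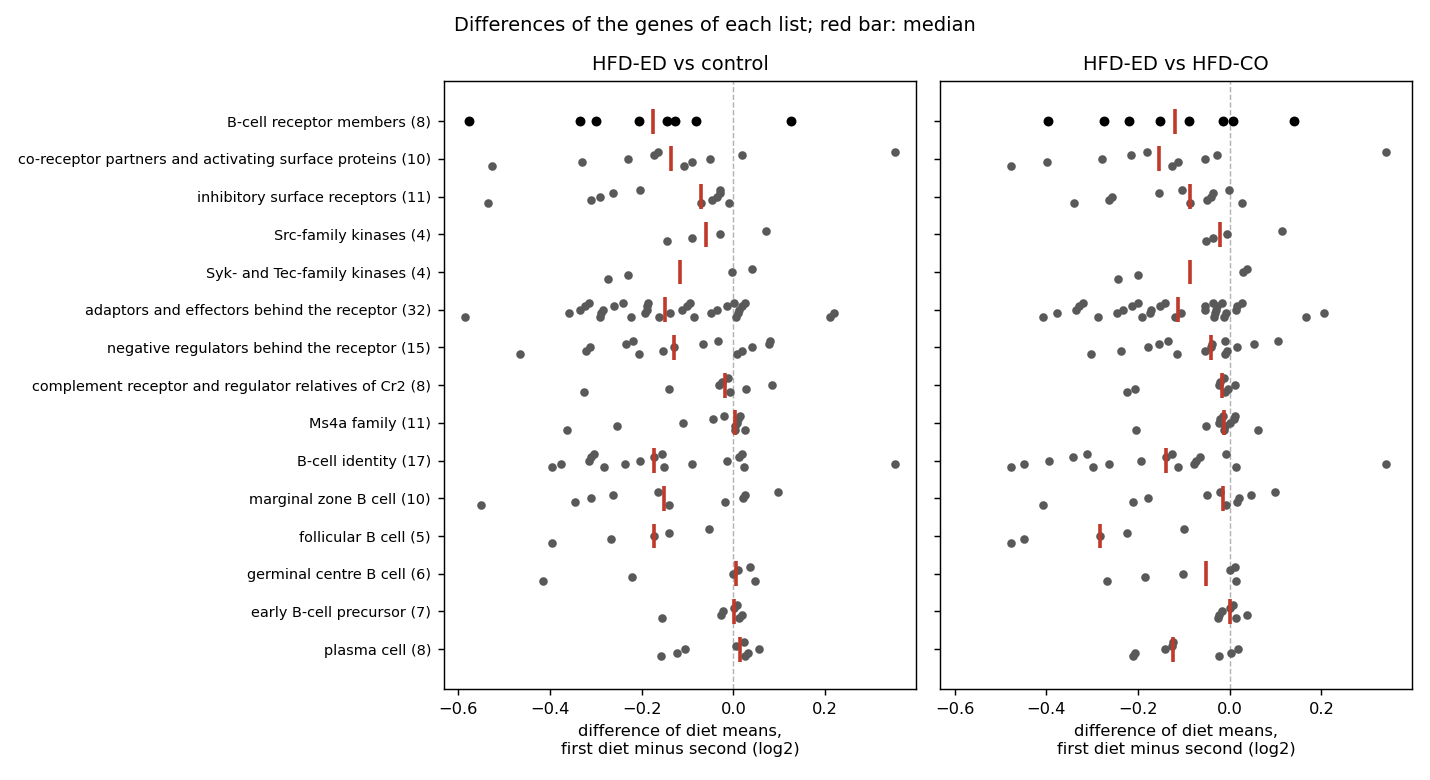
Differences of diet means (log2, first diet minus second) of the genes of the lists with more than 1 measured gene, 1 point per gene with a red bar for the median, the 8 members in black at the top and the number of measured genes in brackets. The medians for HFD-ED against control lie between -0.17 and 0.02, and no single gene passed the adjusted threshold.

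Relatives of Cr2 and Ms4a1 had medians near 0, and some of their probes were dim. Cd46 and Ms4a10, for example, had HFD-ED means of 7.04 and 7.07, where the median of all values is 7.14. Dim probes can hide differences, so these medians do not show that the genes were unchanged. For Cr2, 6 of 8 complement relatives of Cr2 had lower means in HFD-ED than in control fed mice with a median of -0.02. Of 11 other Ms4a genes 5 were lower with a median of 0.003, Ms4a7 at -0.36 and Ms4a4b at -0.25 being the farthest. From HFD-CO, Ms4a7 was at -0.21 and Ms4a4b at -0.02. B-cell identity genes had 13 of 17 lower means and a median of -0.17 from control and 15 of 17 and -0.14 from HFD-CO, among them the IgM receptor gene Fcmr, whose HFD-ED values lay below all control values (-0.20), and H2-DMb2 (-0.38). Marginal zone genes were lower in 7 of 10 with a median of -0.15 from control, against -0.01 from HFD-CO. Of these, Cd1d1, the lipid-presenting molecule of marginal zone B cells, was at 9.20, 8.69, 8.95 and 8.996 in HFD-ED and 9.70, 9.52, 9.56 and 9.25 in control fed mice, without overlap (-0.55 ± 0.14, SE, adjusted p-value = 0.276). The 5 measured follicular genes were all lower in HFD-ED, with medians of -0.17 from control and -0.28 from HFD-CO, and none was lower in HFD-CO than in control fed mice. Fcer2a (CD23) was at 9.42, 9.58, 9.26 and 9.71 in HFD-ED, 10.10, 9.77, 9.82 and 10.20 in HFD-CO, and 9.66, 9.67, 9.62 and 9.71 in control fed mice. Its HFD-CO mice were the highest, above all mice of both other diets, and HFD-ED minus HFD-CO was -0.48 ± 0.11 (SE, adjusted p-value = 0.342). Germinal centre, early precursor and plasma cell genes had medians between 0.001 and 0.015 for HFD-ED minus control. Bcl6, a repressor needed for germinal centres, was at -0.42 and Mzb1, a plasma cell chaperone, at -0.16 ± 0.25 (SE). Dim probes were among these lists too, with Rgs13, Rag1 and Prdm1 between 7.01 and 7.15 in all mice. Their medians near 0 therefore do not show unchanged genes.

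The erythroid, neutrophil and megakaryocyte marker lists stood apart in the HFD-ED mice in which the members were low, although no marker gene passed an adjusted p-value of 0.05. The 9 measured B-cell markers other than members had a mean level between 9.004 and 9.50 in HFD-ED, 9.45 and 9.55 in HFD-CO, and 9.36 and 9.51 in control fed mice, with 7 of 9 lower than in control. Pax5, a defining B-cell factor, was near the median of all values on its probe (7.03 to 7.11), and Ighm and Ighd had no named probe. Of 10 T-cell markers, 9 were lower, with a median of -0.15 and mean levels of 8.72 to 9.22 in HFD-ED, 9.15 to 9.26 in HFD-CO and 9.10 to 9.24 in control fed mice. Red pulp macrophage markers were lower than in control in 4 of 6, with a median of -0.15. Dendritic cell markers were lower in 5 of 6 and NK cell markers in 4 of 5, each with a median of -0.07. The NK cell list did not follow the members within HFD-ED, its mean level being 7.49 to 7.52 in those mice. The red pulp macrophage list was lowest among them in replicate 1, at 10.27. Erythroid, neutrophil and megakaryocyte lists lay on the other side. All 10 measured erythroid markers had higher means in HFD-ED than in control fed mice with a median of 0.92, and their mean level was 9.38, 10.79, 11.43 and 10.72 in HFD-ED, 9.19 to 10.35 in HFD-CO and 9.26 to 10.11 in control fed mice. The 8 neutrophil markers were all higher with a median of 1.02 (mean level 9.54 to 11.97 in HFD-ED, 8.85 to 9.50 in HFD-CO and 9.07 to 10.25 in control fed mice), and so were the 6 megakaryocyte and platelet markers with a median of 0.49. HFD-ED replicate 3 was the highest of all mice in these 3 lists and the lowest in the members, and HFD-ED replicate 1 was within or near the range of the other diets in them. The part of these cells in the levels of the members was not tested.

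**Figure D5:**
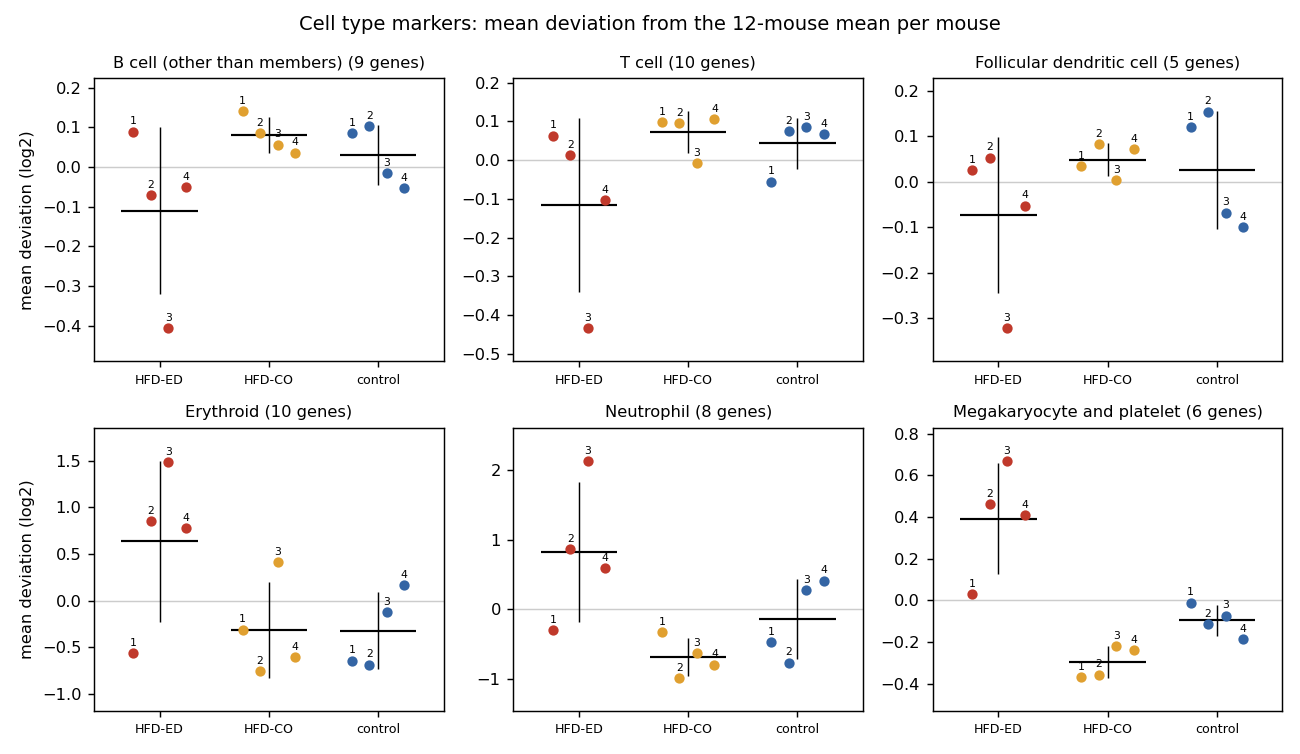
Mean deviation of 6 marker lists from their 12-mouse means (log2, each panel with its own axis), with 1 point per mouse numbered by replicate, a bar for the mean and a line for ± 1 SD of the 4 mice of a diet. HFD-ED replicate 3 is lowest for the B-cell, T-cell and follicular dendritic cell lists and highest for the erythroid, neutrophil and megakaryocyte lists.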

How the data were processed

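Spleen RNA of 12 mice was measured on Illumina BeadChips with 45281 probes. The authors read bead intensities in GenomeStudio and applied a variance-stabilizing transformation and quantile normalization with lumi (2.18.0 in the submitters' processing notes), and the deposited log2 values were used without further normalization. The transformation compresses differences of dim probes, and 75.2% of probes had a mean under 7.5. Detection p-values were not used here. Of the probes, 34885 carried 1 gene symbol, 10378 none and 18 several, giving 19057 genes. Symbols were updated through RefSeq.

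The 3 diets were fitted together with limma 3.58.1 in R 4.3.3 (lmFit and eBayes, 1 coefficient per diet, two-sided), with Benjamini-Hochberg adjustment within each comparison over every probe. A call needed an adjusted p-value under 0.05. The fit was tested on simulated data with known shifts. Levels of different probes were compared only to choose probes, to call them bright or dim, and to set muscle markers beside red pulp macrophage markers. P-values set the difference of diet means against the spread between mice, and the number of arrays limits the precision. Mice were treated as independent, and a shared cage could not be taken into account.

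The members and the 15 lists of related genes and 13 marker lists (242 genes written, 212 measured) were chosen with earlier results of these data known. Genes named were the members, up to 4 genes per list with the smallest unadjusted p-value for HFD-ED against control, the 10 genes most like the mean of the members, the 3 most like each member, and the first 3 of each marker list. Promoter windows are from RefSeq. Alternatives were the replicate number as a block, trended and robust variances, array weights, omission of dim probes, 1 probe per gene, only 2 diets in the fit, centring, a second quantile normalization, the study's threshold of 0.001, other probes of a gene, and each mouse left out.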

Additional observations from a re-analysis of the deposited data

Results flagged for a closer look

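Syk in control replicate 2, at 7.69, lay 0.13 above the nearest of the other 3 control mice, which were between 7.56 and 7.57, a gap of 0.92 of the range of the group. It was the only one of 24 groups of 4 mice, 8 members in 3 diets, in which 1 mouse stood this far from its diet mates, and chance flags about 1 in 20 such groups. Without this mouse the difference of Syk between HFD-CO and control fed mice was -0.12.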

How the results depend on the processing

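No member passed an adjusted p-value of 0.05 under any alternative, and the smallest was 0.0573, for Blk in HFD-ED against control without HFD-ED replicate 1. Of 225 values of single members under other settings, 223 kept their direction. The next brightest probe reversed Blnk in HFD-ED against HFD-CO (0.013) and Cd22 in HFD-CO against control (0.024). The dimmest probes of Cd22 and Blk are not in this count. That of Cd22 reversed HFD-ED against control (0.038), HFD-ED against HFD-CO (0.021) and HFD-CO against control (0.017). That of Blk reversed HFD-CO against control (0.035) and kept the direction in the other comparisons.

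Of 288 values with 1 mouse left out, 13 changed sign. Left-out mice gave HFD-ED minus HFD-CO differences between -0.10 and 0.038 for Cr2, -0.049 and 0.055 for Syk, -0.00018 and 0.34 for Btk, and -0.19 and 0.041 for Blnk. For HFD-CO minus control they gave -0.0056 to 0.049 for Ms4a1, -0.057 to 0.026 for Cd22, and -0.22 to 0.13 for Btk.

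The count of members without overlap lay between 1 and 6 for HFD-ED against control, being 6 without HFD-ED replicate 1 and 2 without control replicate 3. It lay between 0 and 3 for HFD-ED against HFD-CO, being 3 without HFD-ED replicate 1, and was 1 with the mean of all probes of a gene. For HFD-CO against control it lay between 1 and 2, being 2 without HFD-CO replicate 2. Fewer mice make such a position easier to reach. The median difference of the members lay between -0.25 without HFD-ED replicate 1 and -0.088 without HFD-ED replicate 3 for HFD-ED against control, between -0.20 and -0.032 for HFD-ED against HFD-CO without the same mice, and between -0.13 and -0.063 for HFD-CO against control.

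The samples are listed by replicate number, with all 3 diets under each number, and whether a number marks a shared chip or run is not settled here. Of 12 pairs of equal number, 4 correlated above 0.1 (range -0.28 to 0.39). These correlations are not those of whole arrays given above for mice on 1 diet, and the values cannot be set side by side. Among the 12 mice, 3 correlated best with their own number. For HFD-ED against control, 4994 probes had an unadjusted p-value under 0.05 with the number as a block in limma, and 4620 without it. With the replicate number as a block, 0 members passed in each comparison, and Cd79b in HFD-ED against control had an adjusted p-value of 0.158. Over all probes, the count past 0.05 for HFD-ED against control was 0 in the fit with the block and 3 when only 1 probe per gene was tested.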

Other observations

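Outside the naming rule and chosen after their values were seen, the genes whose levels ran most opposite to the mean of the members over the 12 mice were Wipi1 (Pearson r = -0.95), Orc6, a subunit of the origin recognition complex (-0.94), Hpf1, Mcm3, a subunit of the replicative helicase (-0.94), H2az1, Ssna1, Esco2, Cenpn, Pole, the catalytic subunit of DNA polymerase epsilon (-0.93), and Sgo2a.

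Pancreatic acinar markers, measured by 5 genes, had a mean level of 10.40 in HFD-CO replicate 1 and 13.47 in HFD-CO replicate 4, against 7.19 and 7.21 in the other HFD-CO fed mice. Mean levels of this list were between 7.11 and 8.80 in HFD-ED fed mice and between 7.13 and 8.84 in control mice. Of the 12 mice, HFD-CO replicate 4 had the highest Btk level, at 10.38, and HFD-CO replicate 1 the lowest, at 9.35.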
